A study of Homo sapiens with 6 samples.

Results

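The genes described here are 38 genes of ribosome biogenesis and MYC-driven growth in the human lung fibroblast line MRC5. They were chosen by gene symbol, and they and the lists set beside them were chosen with earlier results of these data known. They comprise *MYC*, its partner *MAX*, the MAX-binding repressor *MXD4*, subunits and cofactors of RNA polymerase I, and proteins that modify and process ribosomal RNA in the nucleolus. All 38 were found among the 58676 gene identifiers of the deposited count table, and all 38 were among the 19072 that were tested, which needed a sum of 10 counts or more over the 6 libraries.

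The fibroblasts were kept for 24 h in conditioned media (CM) from ATIIER:KRASV12 cells, a human alveolar epithelial type II (ATII) line in which 4-hydroxytamoxifen (4-OHT) switches on RAS signaling. Medium from untreated ATII cells (control CM, written control ATII CM in the figures) was given to the fibroblasts of 3 libraries, and medium from 4-OHT-treated ATII cells (4-OHT CM or 4-OHT ATII CM) to those of 3 more. Both groups used the same fibroblast line, and no TGF-β was added. No group received 4-OHT in CM without RAS activation, so effects of the drug itself and of RAS-dependent factors in the CM cannot be told apart. The labels do not say whether replicates came from separate cultures, so p values measure the spread between these libraries only, which may be technical.

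A ribosome begins in the nucleolus, where RNA polymerase I transcribes a long precursor ribosomal RNA. Small nucleolar ribonucleoproteins (snoRNPs) modify that precursor, and large assemblies of processing factors cut and fold it into the small and the large ribosomal subunit. MYC, which binds DNA as a dimer with MAX at E-box sequences, is a known activator of genes at each of these steps, and proteins of the MXD family compete with MYC for MAX. Growing cells spend much of their transcription on this pathway, which is known to slow when cells leave the cell cycle.

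Libraries held 17691849 to 26389449 counts on genes. Control CM replicate 2 had the fewest counts and stood apart from the other libraries on the second principal component, which held 23.3% of the variance. Of 9 lung fibroblast markers, all were detected and *COL3A1*, the least counted of 3 collagen genes, still had 83670 counts in the library where it was lowest. Of the 9, *DCN*, *LUM*, *COL3A1* and *PDGFRA* were upregulated and *VIM* was downregulated. Of 13 epithelial markers, 5 passed the count filter (*KRT8*, *KRT18*, *KRT19*, *EPCAM* and *CLDN4*), while *KRT5*, *SFTPA1*, *SFTPA2*, *NKX2-1* and *ESRP1* had 0 counts in every library and *CDH1* had 4 counts in all. The summed level of the 5 markers was 91.2 to 97.2 CPM (the unit of level used throughout, counts divided by the TMM-adjusted library size) in control CM and 88.9 to 95.004 CPM in 4-OHT CM.

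Because MYC and MAX bind the E-box CACGTG, the promoters of the genes were searched for these 6 letters. The windows were those of RefSeq on GRCh38.p14, from 250 bases before to 50 bases after each start site. CACGTG reads the same on both strands, so a single search covers both. Windows were at hand for 30 of the 38 genes, and not for *MYC*, *NOP58*, *NOLC1*, *TCOF1*, *RRP1B*, *RRP12*, *RRS1* and *BOP1*. The letters were present in a window of 15 of these 30 genes (50.0%), against 2396 of 27305 genes with a window (8.77%) and 994 of 7525 tested genes with a mean of at least 10 CPM (13.2%). In 4 other lists of nucleolar genes, described below, 30 of 111 genes with a window held them (27.0%). In 13 of the 15 genes the first base of the match lay within 36 bases of a start site, while in *LYAR* it lay 64 bases and in *MXD4* 238 bases before one. In *DDX21* it lay 31 bases before the downstream one of its 2 start sites.

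The following windows of 100 bases run from 80 bases before the start site through the first 20 transcribed bases. *UTP20* and *DDX21* are shown because they were the downregulated genes with a match, and the other 4 because their matches lay nearest to a start site. Capitals mark the E-box. The windows are *UTP20* on chr12:101280025-101280124 (plus strand), *DDX21* on chr10:68956567-68956666 (plus), *WDR43* on chr2:28894587-28894686 (plus), *GNL3* on chr3:52685952-52686051 (plus), *RRP9* on chr3:51941885-51941984 (minus) and *FBL* on chr19:39846360-39846459 (minus).
UTP20: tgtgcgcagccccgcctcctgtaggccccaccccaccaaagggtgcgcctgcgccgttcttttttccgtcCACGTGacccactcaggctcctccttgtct
DDX21: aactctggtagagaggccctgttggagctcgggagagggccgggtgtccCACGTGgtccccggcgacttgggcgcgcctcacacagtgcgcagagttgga
WDR43: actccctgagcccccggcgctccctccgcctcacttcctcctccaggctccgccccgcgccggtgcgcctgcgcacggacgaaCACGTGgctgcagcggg
GNL3: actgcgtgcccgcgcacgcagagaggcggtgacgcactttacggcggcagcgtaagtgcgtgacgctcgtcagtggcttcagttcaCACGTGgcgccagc
RRP9: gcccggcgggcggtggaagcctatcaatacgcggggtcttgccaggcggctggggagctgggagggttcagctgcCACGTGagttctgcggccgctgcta
FBL: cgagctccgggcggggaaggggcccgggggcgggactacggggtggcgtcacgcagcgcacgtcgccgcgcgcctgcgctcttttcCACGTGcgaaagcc

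The same windows of *POLR1A* on chr2:86105867-86105966 (minus), *NCL* on chr2:231464465-231464564 (minus) and *DKC1* on chrX:154762784-154762883 (plus) are shown because these genes were downregulated although their 300-base windows hold no CACGTG.
POLR1A: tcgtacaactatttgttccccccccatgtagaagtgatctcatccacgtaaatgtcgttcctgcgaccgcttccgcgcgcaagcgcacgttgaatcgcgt
NCL: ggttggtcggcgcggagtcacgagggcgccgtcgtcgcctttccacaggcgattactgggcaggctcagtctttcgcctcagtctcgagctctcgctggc
DKC1: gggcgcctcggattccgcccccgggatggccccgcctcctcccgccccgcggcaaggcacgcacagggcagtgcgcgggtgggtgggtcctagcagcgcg

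**Figure D1:**
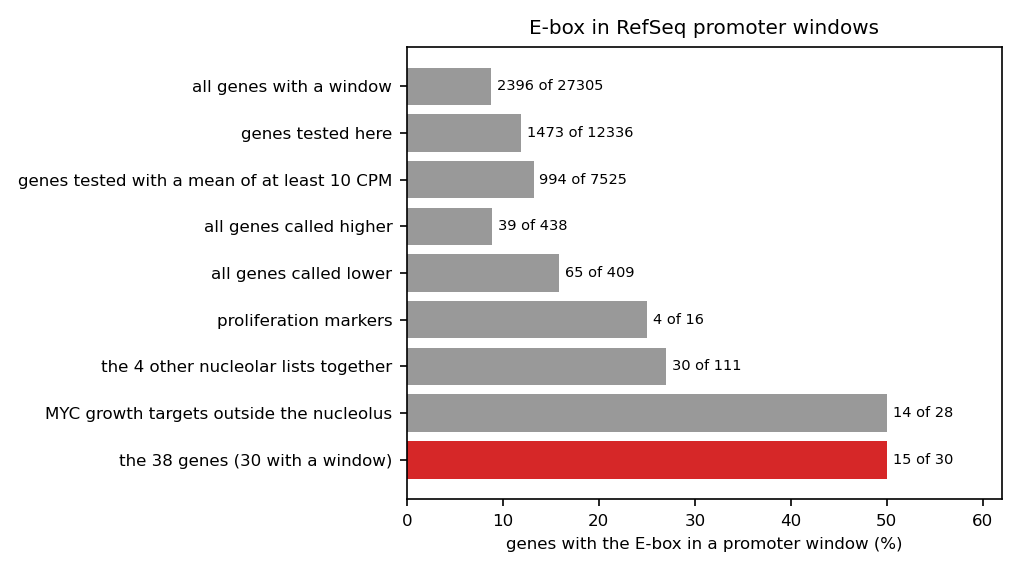
Share of genes (x axis, percent) with CACGTG in at least 1 RefSeq promoter window, with the number of genes beside each bar. The bar of the 38 genes stands at 50.0% (15 of 30), as does that of MYC growth targets outside the nucleolus (14 of 28). The 4 other nucleolar lists together stand at 27.0% (30 of 111), and all genes with a window at 8.77%.

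Most of the 38 genes were at a slightly lower level in 4-OHT CM. The log2 fold change (4-OHT CM over control CM) was below 0 in 35 of the 38, against 50.5% of all genes tested and 49.6% of those whose mean level reached 10 CPM. Its median over the 38 genes was -0.10, a change of -6.94%, with quartiles of -0.15 and -0.049, while the median over all genes tested was -0.0020. At an adjusted p below 0.05 (edgeR quasi-likelihood test, Benjamini-Hochberg adjustment over all 19072 genes), 9 of the 38 (23.7%) were downregulated differentially expressed genes (DEGs), where 2.76% of all genes tested were, and none was upregulated, where 2.95% were (5.72% in either direction). Among genes with a mean of at least 10 CPM, which included 36 of the 38 and all 9 DEGs, 4.66% were downregulated and 5.54% upregulated. At an unadjusted p below 0.05, 17 were lower and 2 higher, against 8.61% and 8.72% of all genes.

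The 9 downregulated genes, in order of p, were *POLR1A*, *UTP20*, *DDX21*, *TCOF1*, *NCL*, *DKC1*, *RRS1*, *MYC* and *NOLC1*. In 15 of the 38 genes the 3 libraries of 4-OHT CM all lay below the 3 of control CM (10.4% of all genes tested), and in 2 they all lay above (11.7%). None of the 9 DEGs changed by 1.5-fold or more. The count of downregulated genes depended on single libraries. It was 4 without control CM replicate 1 (2.11% of all genes tested), 8 without replicate 2 (4.46%) and 2 without replicate 3 (1.83%). Without 4-OHT CM replicates 1, 2 and 3 it was 3 (1.88%), 2 (1.32%) and 2 (1.62%). In these 6 fits the median log2 fold change stayed between -0.13 and -0.089, while *LYAR*, *NOB1*, *POLR1C*, *RRP12*, *RRP9* and *WDR75*, among the 35 genes below 0, turned above 0 in at least 1 of them. With all libraries, the count was 7 by DESeq2 (2.46% of all genes), 10 by limma-voom (2.89%), 9 with RLE (2.86%), upper quartile (2.77%) or no scaling factors (3.04%), 8 without a count filter (2.62%), 10 with the filterByExpr filter (4.03%) and 7 with a replicate block (2.53%).

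**Figure D2:**
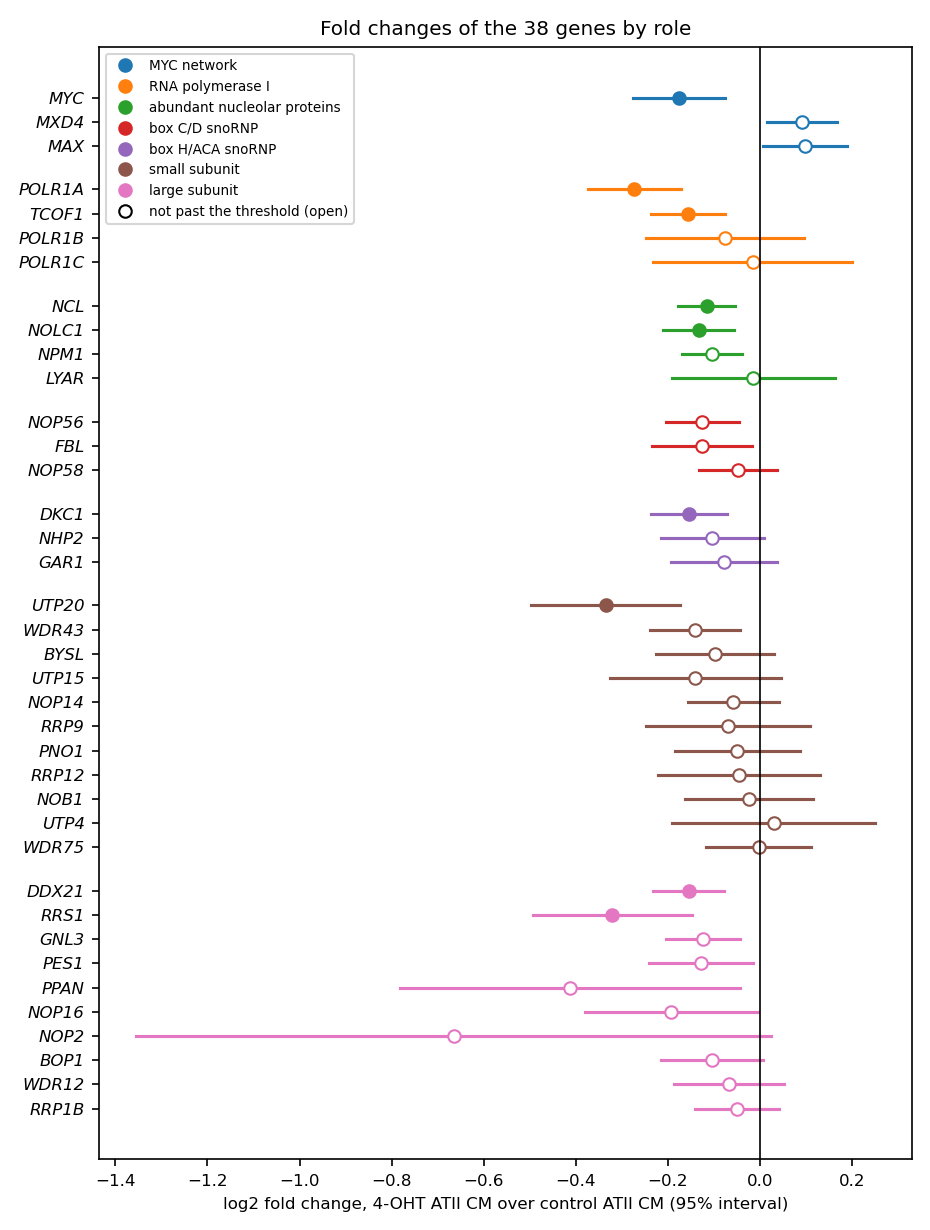
Log2 fold change of each of the 38 genes (x axis) with its 95% interval from edgeR, grouped by role (y axis, colors). Filled points mark the 9 genes past the adjusted threshold, all to the left of 0, and *MAX*, *MXD4* and *UTP4* are the 3 points to the right of 0.

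Within the MYC network, *MYC* fell while *MAX* and *MXD4* leaned the other way without passing the test. *MYC* (ENSG00000136997, chromosome 8 of GRCh38, 127735434 to 127741434, plus strand), which encodes the growth-promoting transcription factor, was at 36.8, 37.96 and 36.6 CPM in control CM and at 32.5, 32.5 and 33.5 CPM in 4-OHT CM. Every library of 4-OHT CM was below every control library, and the means were 37.1 ± 0.737 and 32.8 ± 0.601 CPM (SD, n = 3 each). The log2 fold change was -0.18 (SE 0.0470, edgeR adjusted p = 0.0379), so that the level fell by 11.5%. *MYC* did not pass with DESeq2 (adjusted p = 0.102), with a replicate block (edgeR adjusted p = 0.0621) or when any single library was left out (edgeR adjusted p from 0.0631 to 0.126). Over all 14 alternatives the adjusted p ranged from 0.0311 to 0.126, with the direction unchanged.

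*MAX* (ENSG00000125952), the obligate dimer partner of MYC and of the MXD proteins, was at 56.9, 61.4 and 55.4 CPM in control CM and 61.4, 62.2 and 61.9 CPM in 4-OHT CM. Control CM replicate 2 came just below the lowest 4-OHT library, and the log2 fold change was 0.098 (SE 0.0429, edgeR adjusted p = 0.246). *MXD4* (ENSG00000123933), a repressor that pairs with MAX, was at 181, 191 and 183 CPM in control CM and 192, 201 and 197 CPM in 4-OHT CM. Its groups did not overlap, and the log2 fold change was 0.091 (SE 0.0358, edgeR adjusted p = 0.182). Of the 14 alternatives, both genes passed the threshold only when control CM replicate 2 was left out (edgeR adjusted p = 0.0318 for *MAX* and 0.0326 for *MXD4*), and over all alternatives the values ranged up to 0.627 and 0.444.

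Of 12 other genes of the MYC and MAX network that were tested, 1 rose and 1 fell (8.33% each, against 2.95% and 2.76% of all genes tested). *MXI1*, which encodes another MAX-binding repressor of MYC targets, was at 19.8, 22.1 and 23.3 CPM in control CM and 27.7, 25.9 and 28.7 CPM in 4-OHT CM, with no overlap and a log2 fold change of 0.34 (SE 0.0682, edgeR adjusted p = 0.00689). *MXD3*, an MXD family member found in dividing cells, had a log2 fold change of -0.51 (SE 0.132, edgeR adjusted p = 0.0331), and 40.4% of its exon bases overlap other genes, *RAB24* and *PRELID1* among them. The repressor gene *MNT*, at 33.2 CPM in control CM and 31.0 CPM in 4-OHT CM, and *MXD1*, at 14.97 and 15.4 CPM, did not pass the test (edgeR adjusted p = 0.384 and 0.838). Over the 12 genes the median was -0.018.

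**Figure D3:**
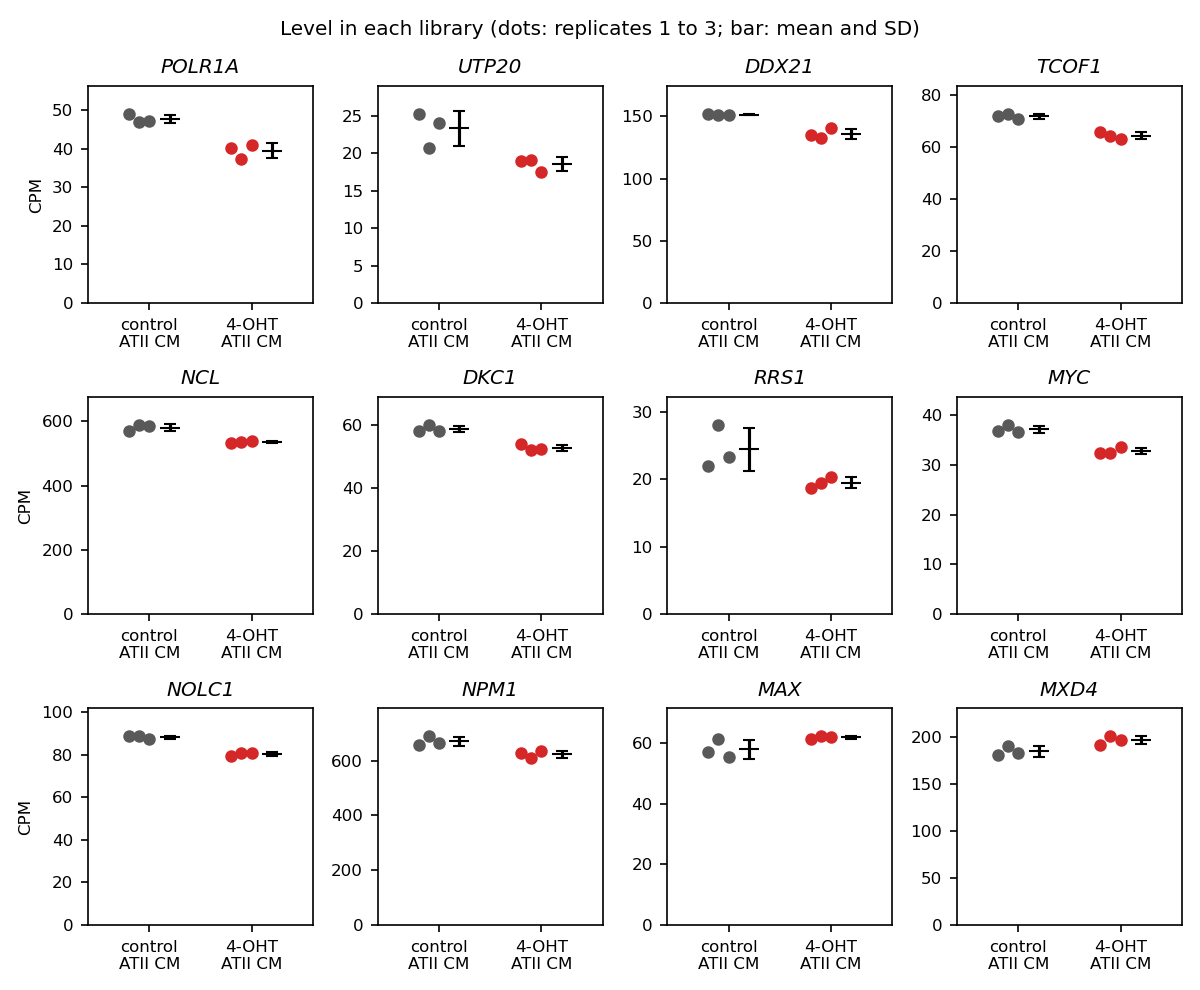
Level in CPM (y axis, from 0) of the 9 downregulated genes and of *NPM1*, *MAX* and *MXD4* in each library (x axis, group). Dots are the 3 replicates and the bar beside them is the mean with its SD. In the 9 downregulated genes and *NPM1* all 3 dots of 4-OHT CM lie below those of control CM.

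Among the 4 RNA polymerase I genes, *POLR1A* and *TCOF1* fell, where 2.76% of all genes tested did. *POLR1B* and *POLR1C* did not pass the test. *POLR1A* (ENSG00000068654, chromosome 2, 86020216 to 86106155, minus strand) encodes the largest subunit, which holds the active site together with the product of *POLR1B*. It was at 48.9, 46.9 and 47.1 CPM in control CM and at 40.2, 37.2 and 40.9 CPM in 4-OHT CM, well apart from each other. The log2 fold change of -0.27 (SE 0.0475, edgeR adjusted p = 0.00257) means that the level fell by 17.2%. It was the only one of the 9 DEGs that passed in all 14 alternatives (adjusted p from 9.96e-06 to 0.0222).

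*TCOF1* (ENSG00000070814, chromosome 5, 150357629 to 150400308) encodes treacle, a nucleolar protein that aids transcription of ribosomal DNA. Its level was 71.9, 72.5 and 70.6 CPM in control CM and 65.7, 64.2 and 63.2 CPM in 4-OHT CM. The groups did not overlap, and the log2 fold change was -0.16 (SE 0.0376, edgeR adjusted p = 0.0219, from 0.0172 to 0.128 over the alternatives, with the call lost when any of 4 libraries was left out). *POLR1B*, the gene of the second largest subunit, was at 14.8, 14.7 and 15.6 CPM in control CM and 15.03, 14.998 and 12.8 CPM in 4-OHT CM. *POLR1C*, whose product RNA polymerase III also uses, was at 12.1, 10.0 and 11.8 CPM and 10.8, 10.1 and 12.7 CPM. In both the groups overlapped, and the 95% intervals of their log2 fold changes were -0.25 to 0.097 and -0.23 to 0.20 (edgeR adjusted p = 0.713 and 0.963).

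Of 17 other genes of the RNA polymerase I machinery, 1 fell (5.88%) and none rose. The share is near the 4.66% of all genes with a mean of 10 CPM or more, and 2.76% of all genes tested fell. The gene that fell was *TAF1D*, which encodes a subunit of the selectivity factor that brings the polymerase to its promoter. Its log2 fold change was -0.18 (SE 0.0472, edgeR adjusted p = 0.0382). The gene hosts several small nucleolar RNAs, and 17.3% of its exon bases overlap other genes. The median of the 17 was -0.069.

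Of the 4 abundant nucleolar proteins, *NCL* and *NOLC1* fell, where 2.76% of all genes tested did. *NPM1* and *LYAR* did not pass the test. *NCL* (ENSG00000115053, chromosome 2, 231453531 to 231483641) encodes nucleolin, which binds ribosomal DNA and precursor RNA. It was at 569, 588 and 586 CPM in control CM and at 533, 536 and 539.7 CPM in 4-OHT CM. The groups were fully separated, by a small step of -0.12 on the log2 scale (SE 0.0290, edgeR adjusted p = 0.0281). The adjusted p ranged from 0.00540 to 0.119 over the alternatives, and it was above 0.05 when control CM replicate 3 or any library of 4-OHT CM was left out.

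*NOLC1* (ENSG00000166197, chromosome 10, 102152176 to 102163871), whose product Nopp140 escorts snoRNPs through the nucleus, was at 88.6, 88.6 and 87.1 CPM in control CM and 79.3, 80.9 and 80.8 CPM in 4-OHT CM. The groups were apart by more than the spread within either, with a log2 fold change of -0.13 (SE 0.0360, edgeR adjusted p = 0.0406). This was the called gene nearest to the threshold, and DESeq2 did not call it (adjusted p = 0.0682), nor did 7 other alternatives, with values from 0.0270 to 0.162.

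*NPM1*, which encodes nucleophosmin, a chaperone of ribosomal proteins and the most abundant of the 38 transcripts, was at 657, 689 and 664 CPM in control CM and 627, 609 and 635 CPM in 4-OHT CM. Its groups did not overlap, and the log2 fold change was -0.10 (SE 0.0307, edgeR adjusted p = 0.0620). It was a DEG with DESeq2 (adjusted p = 0.0328) and with limma-voom (adjusted p = 0.0290), and over the alternatives the value ranged up to 0.234. Transcripts of the pseudogenes *NPM1P27* and *NPM1P39* are near-identical to it. *LYAR*, a gene for a nucleolar zinc finger protein, was at 21.6, 18.5 and 18.0 CPM in control CM and 18.4, 18.2 and 21.0 CPM in 4-OHT CM, and its groups overlapped, with a 95% interval of the log2 fold change from -0.19 to 0.16.

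Of 6 genes of the snoRNP cores, *DKC1* fell, *NOP56* did not pass the test although its groups did not overlap, and the other 4 had overlapping groups. Downregulation was called in 2.76% of all genes tested, and full separation below control CM was seen in 10.4%. Box H/ACA snoRNPs convert uridines of ribosomal RNA to pseudouridine. *DKC1* (ENSG00000130826, chromosome X, 154762742 to 154777689), the gene of their enzyme dyskerin, was at 58.1, 59.9 and 58.0 CPM in control CM and 53.8, 52.1 and 52.3 CPM in 4-OHT CM. The 3 values of each group lay close together and apart from the other group, with a log2 fold change of -0.15 (SE 0.0390, edgeR adjusted p = 0.0286). The call was lost with DESeq2 (adjusted p = 0.0766) and when any library other than control CM replicate 2 was left out, with values from 0.0243 to 0.135 over the alternatives.

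*NHP2* and *GAR1*, whose products sit beside dyskerin in these particles, had log2 fold changes of -0.10 and -0.077 and overlapping groups (edgeR adjusted p = 0.342 and 0.524). Box C/D snoRNPs add methyl groups to ribose. *NOP56*, a gene of their scaffold, was at 90.7, 90.2 and 92.4 CPM in control CM and 84.3, 81.5 and 85.0 CPM in 4-OHT CM. Its groups did not overlap, but with a log2 fold change of -0.12 (SE 0.0370) the edgeR adjusted p was 0.0633, and over the alternatives it ranged from 0.0270 without control CM replicate 2 to 0.227 without 4-OHT CM replicate 2, with a call also under the filterByExpr filter (0.0448). *FBL*, the gene of the methyltransferase fibrillarin, was at 81.5, 87.5 and 79.1 CPM in control CM and 81.8, 72.9 and 72.8 CPM in 4-OHT CM. Here 4-OHT CM replicate 1 reached the control range, and the edgeR adjusted p was 0.197. *NOP58*, the other scaffold gene, had a log2 fold change of -0.048 (edgeR adjusted p = 0.606).

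The summed level of the box C/D genes was 228 to 236 CPM in control CM and 209 to 221 CPM in 4-OHT CM. That of the box H/ACA genes was 129 to 134 CPM and 119 to 124 CPM. Neither pair of ranges overlaps. The same held for the summed levels of the RNA polymerase I, abundant nucleolar, small subunit and large subunit genes, so it was not particular to the snoRNP genes. Of 11 other genes of snoRNP assembly, 1 fell, *RUVBL2*, which encodes an ATPase of the assembly machinery (log2 fold change -0.19, SE 0.0445, edgeR adjusted p = 0.0175). This is 9.09% of the list, against 2.76% of all genes tested and 4.66% of those with a mean of 10 CPM or more.

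Of the nucleolar groups, small subunit factors had the median nearest to 0. Of 11 genes, 10 had a log2 fold change below 0, the median was -0.057, and 1 fell (9.09%). Over all genes tested, 50.5% were below 0 and 2.76% were downregulated (4.66% of those with a mean of 10 CPM or more). With 1 library left out, *RRP12*, *NOB1*, *RRP9* and *WDR75* turned above 0 in at least 1 of the 6 fits, and *UTP4* turned below 0. The gene that fell was *UTP20* (ENSG00000120800, chromosome 12, 101280109 to 101386616), which encodes a very large scaffold protein of the small subunit processome. Its level was 25.2, 20.7 and 24.0 CPM in control CM and 19.0, 19.1 and 17.5 CPM in 4-OHT CM. Control CM replicate 2 was the lowest of its group but still above all libraries of 4-OHT CM, and the log2 fold change of -0.34 (SE 0.0760, edgeR adjusted p = 0.0151) corresponds to a level that fell by 20.7%. Its adjusted p ranged from 0.000231 without a count filter to 0.0792 without 4-OHT CM replicate 3, and it was also above 0.05 without control CM replicate 1 or 3.

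*WDR43*, a gene of the complex that first binds the precursor RNA, was at 53.2, 56.3 and 56.7 CPM in control CM and 51.2, 47.6 and 52.0 CPM in 4-OHT CM. Its groups did not overlap, with a log2 fold change of -0.14 (SE 0.0458, edgeR adjusted p = 0.0953). Its partners in that complex were *UTP15*, with a log2 fold change of -0.14, *WDR75*, with -0.0025, and *UTP4*, with 0.030, and none passed the test. *UTP4* was steady at 20.01, 19.8 and 19.7 CPM in control CM but spread over 24.8, 17.2 and 19.0 CPM in 4-OHT CM, and without replicate 1 its log2 fold change was -0.13. It is the only one of the 38 genes with a copy on an alternate contig of the assembly.

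The other small subunit genes were *NOP14*, *RRP9* (a protein of the U3 snoRNP), *BYSL*, *PNO1*, *RRP12* and *NOB1* (the nuclease that makes the final cut of the small subunit RNA). Their log2 fold changes ran from -0.097 in *BYSL* to -0.023 in *NOB1*, and in each of them the groups overlapped. Of 46 further genes of the small subunit processome, 40 were below 0, 3 fell (6.52%) and none rose. The share that fell was 2.76% of all genes tested and 4.66% of those with a mean of 10 CPM or more. The 3 were *NAT10*, an RNA acetyltransferase gene (log2 fold change -0.18, edgeR adjusted p = 0.0368), *DHX37*, a helicase gene (-0.21, edgeR adjusted p = 0.0371), and *SNU13*, the gene of an RNA-binding protein shared with the spliceosome (-0.14, edgeR adjusted p = 0.0480).

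All 10 large subunit genes had a log2 fold change below 0, with a median of -0.14, and 2 fell. Of all genes tested, 50.5% were below 0 and 2.76% were downregulated. *DDX21* (ENSG00000165732, chromosome 10, 68956128 to 68985073), the gene of an RNA helicase that acts on ribosomal RNA genes and on their transcripts, was at 152, 151 and 151 CPM in control CM and 135, 132 and 140.3 CPM in 4-OHT CM. The control libraries were nearly equal and all above the others, with a log2 fold change of -0.15 (SE 0.0359, edgeR adjusted p = 0.0173, from 0.00601 to 0.1001 over the alternatives). It was not a DEG without control CM replicate 3 or without 4-OHT CM replicate 1 or 2.

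*RRS1* (ENSG00000179041, chromosome 8, 66429028 to 66430733) encodes a factor that helps to bring 5S RNA into the large subunit. It was at 22.02, 27.996 and 23.3 CPM in control CM and 18.7, 19.4 and 20.3 CPM in 4-OHT CM. Control CM replicate 2 was far above the rest, and the log2 fold change of -0.32 (SE 0.0811, edgeR adjusted p = 0.0289) became -0.22 without that library (edgeR adjusted p = 0.0661). Over the alternatives the adjusted p ranged from 0.000378 to 0.114. It was also above 0.05 when any library of 4-OHT CM was left out, and 11.4% of its exon bases overlap another gene.

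*GNL3*, which encodes nucleostemin, a nucleolar GTPase found in dividing cells, was at 79.8, 79.3 and 77.8 CPM in control CM and 73.7, 70.2 and 73.6 CPM in 4-OHT CM. The groups did not overlap, and the log2 fold change was -0.12 (SE 0.0382, edgeR adjusted p = 0.0765). The 3 genes of the PeBoW complex, *PES1*, *BOP1* and *WDR12*, had log2 fold changes of -0.13, -0.10 and -0.067 and overlapping groups (edgeR adjusted p = 0.217, 0.331 and 0.612). With 1 library left out these ranged from -0.18 to -0.076, from -0.15 to -0.051 and from -0.10 to -0.043, *BOP1* being nearest to 0 without control CM replicate 2 and the others without 4-OHT CM replicate 1. *NOP16* stood at -0.19 and *RRP1B* at -0.050, also with overlap.

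*PPAN* and *NOP2* had the lowest levels of the 38 genes and the widest errors. *PPAN* was at 3.98, 3.70 and 3.31 CPM in control CM and 3.11, 3.05 and 2.13 CPM in 4-OHT CM, a log2 fold change of -0.41 (SE 0.174, edgeR adjusted p = 0.223). *NOP2* was at 0.796, 0.616 and 1.28 CPM in control CM and 0.502, 0.602 and 0.609 CPM in 4-OHT CM, with a log2 fold change of -0.67 (SE 0.324, edgeR adjusted p = 0.310). Without control CM replicate 3 the value of *NOP2* was -0.32, and without 4-OHT CM replicate 3 that of *PPAN* was -0.25. Exons of the readthrough gene *PPAN-P2RY11* and of *P2RY11* cover 59.8% of the exon bases of *PPAN*, and exons of ENSG00000285238 cover 54.4% of those of *NOP2*. Other genes share 97.5% of the exon bases of *PPAN-P2RY11*, and its counts and those of ENSG00000285238 were 0 in every library. Reads in shared exons were thus not counted for these 2 genes, although the sources used here do not give the rule. The levels of *PPAN* and *NOP2* may therefore rest on their unshared exon bases only, and both are uncertain.

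Of 55 further genes of large subunit assembly, 45 were below 0, 3 fell (5.45%) and none rose. The share is near the 4.66% of all genes with a mean of 10 CPM or more, and 2.76% of all genes tested fell. *EIF6*, the gene of a factor that keeps the subunits apart, had a log2 fold change of -0.23 (SE 0.0402, edgeR adjusted p = 0.00308), with 17.4% of its exon bases overlapping another gene. *EBNA1BP2* had -0.20 (edgeR adjusted p = 0.00914), with an overlap of 20.5%. *MDN1*, which encodes a giant ATPase that remodels the large subunit, had -0.38 (SE 0.0918, edgeR adjusted p = 0.0208), with 19.7, 15.5 and 20.6 CPM in control CM and 14.3, 14.6 and 14.0 CPM in 4-OHT CM.

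**Figure D4:**
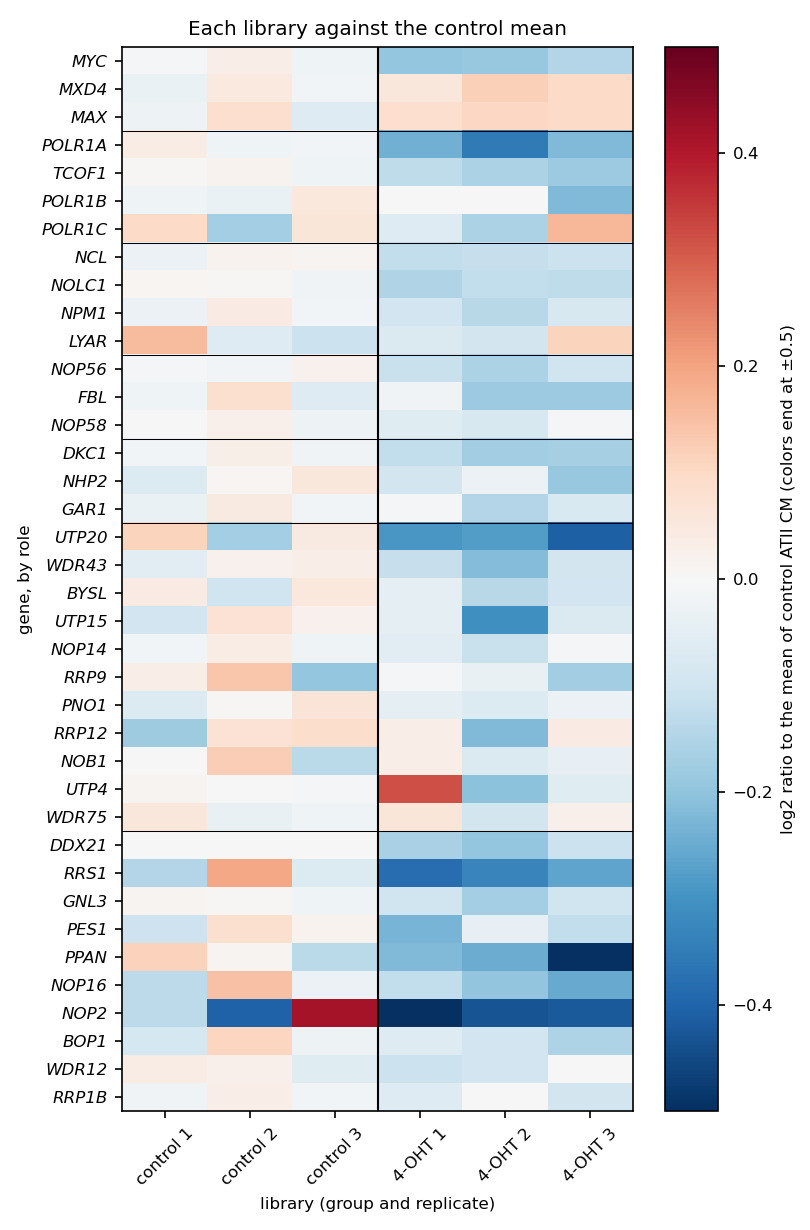
Log2 ratio of each library to the mean of control CM (color scale, ending at ±0.5) for each of the 38 genes (y axis, by role) in each library (x axis). Blue prevails in the 3 columns of 4-OHT CM, where 31, 35 and 32 of the 38 genes are below the control mean.

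Seen by library, the median log2 ratio of the 38 genes to their control mean was -0.013, 0.023 and -0.015 in control CM replicates 1 to 3 and -0.082, -0.14 and -0.10 in those of 4-OHT CM. For all genes tested the same medians lay between -0.0097 and 0.0046. Each library of 4-OHT CM was thus shifted, replicate 2 the most. The summed level of the 38 genes was 2881, 2983 and 2908 CPM in control CM and 2747, 2699 and 2756 CPM in 4-OHT CM.

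Per kilobase of exon, the highest control levels were those of *NPM1* (175 CPM per kilobase), *NCL* (83.8), *FBL* (38.1), *DDX21* (30.1) and *NHP2* (27.7), and *MYC* was at 12.4. *POLR1A*, with 3.52 CPM per kilobase, and *UTP20*, with 2.32, were among the scarcest transcripts, and together with *RRS1* they had the 3 lowest log2 fold changes of the 9 downregulated genes. Exons of other genes cover over 10% of the exon bases of 9 of the 38 genes, and of the 9 downregulated genes this holds for *RRS1* only. In bulk RNA, fewer cells that express a gene and less RNA of it per cell cannot be told apart.

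The genes were also set apart by the E-box. The 15 genes with CACGTG in a window, such as *UTP20*, *DDX21* and *FBL* above, had a median log2 fold change of -0.097 and 2 DEGs. The 15 with a window but without these letters, such as *POLR1A*, *NCL* and *DKC1*, had a median of -0.10 and 3 DEGs, and the 8 genes for which no window was at hand had a median of -0.12 and 4 DEGs. Of all genes tested, 2.76% were downregulated. Of the DEGs of the whole table for which a window was at hand, 65 of 409 downregulated (15.9%) and 39 of 438 upregulated ones (8.90%) held CACGTG, against 1473 of 12336 tested genes with a window (11.9%). No test was made of these shares.

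MYC targets that act outside the nucleolus were followed through a list of 31 tested genes. Like the other lists, it was chosen with earlier results of these data known, so its shares are a description only. Of the 31 genes, 28 were below 0 and the median was -0.095. In all, 9 fell (29.0%) and none rose, against 2.76% and 2.95% of all genes tested. Among genes with a mean of 10 CPM or more, a level that not all of the 31 reached, these shares were 4.66% and 5.54%. *SRM*, the gene of spermidine synthase, was at 96.6, 104 and 99.6 CPM in control CM and 83.5, 82.5 and 84.1 CPM in 4-OHT CM, a log2 fold change of -0.26 (SE 0.0387, edgeR adjusted p = 0.000672). *ODC1*, the gene of ornithine decarboxylase, which makes the substrate of polyamine synthesis, was at 104, 112 and 99.8 CPM and 87.8, 86.5 and 86.4 CPM, a log2 fold change of -0.28 (SE 0.0433, edgeR adjusted p = 0.00110). Both polyamine genes thus had fully separated groups.

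*PAICS*, a purine synthesis gene, changed by -0.21 (edgeR adjusted p = 0.00412). *E2F1*, which encodes a transcription factor of S phase entry, changed by -0.48 (edgeR adjusted p = 0.0139). *C1QBP*, the gene of a mitochondrial matrix protein, changed by -0.17 and *NME1*, a nucleoside diphosphate kinase gene, by -0.20 (edgeR adjusted p = 0.0175 and 0.0203). *CAD*, the gene of the first enzymes of pyrimidine synthesis, *EIF3B* and *EIF4A1* completed the 9. Exons of other genes cover 18.6% of the exon bases of *NME1* and 48.6% of those of *EIF4A1*. *EIF4A1* was counted at only 8.08 CPM in control CM and 5.98 CPM in 4-OHT CM. If reads in shared exons were left out, these values come from the unshared bases only, so its call is uncertain.

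**Figure D5:**
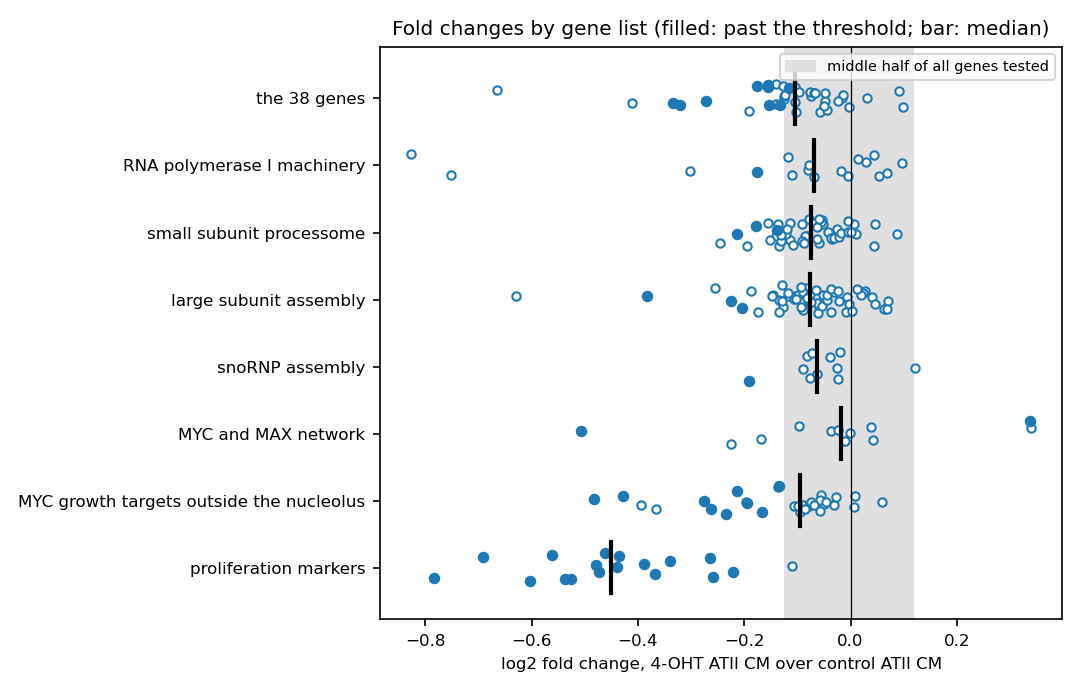
Log2 fold change (x axis) of each tested gene of the 38 and of 7 other gene lists (y axis), with filled points for DEGs, a black bar for the median and a gray band between the quartiles of all genes tested. Every nucleolar list has its median left of 0, and the proliferation markers have the lowest median, -0.45.

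Markers of proliferation moved along with these genes and by more. Of 18 such markers, 17 were downregulated (94.4%), against 2.76% of all genes tested and 4.66% of those with a mean of 10 CPM or more. *PCNA* was the exception (log2 fold change -0.11, edgeR adjusted p = 0.242), and the median log2 fold change was -0.45. Their summed level was 682 to 726 CPM in control CM and 504 to 552 CPM in 4-OHT CM. *MKI67*, the marker of cycling cells, went from 41.5 to 24.2 CPM (log2 fold change -0.78, SE 0.0699), and *TOP2A*, the topoisomerase of dividing cells, from 98.5 to 66.7 CPM (-0.56, SE 0.0495). Per library, the median log2 ratios of the markers to their control mean were -0.0044, 0.051 and -0.051 in control CM and -0.39, -0.53 and -0.41 in 4-OHT CM. As with the 38 genes, control CM replicate 2 was the highest and 4-OHT CM replicate 2 the lowest. The part of the lower proliferation markers in the lower level of the ribosome biogenesis genes was not tested.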

How the data were processed

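RNA-Seq of 6 MRC5 libraries was analysed, 3 per group, grouped by the sample labels. After trimming by Trim Galore, the authors aligned the reads to GRCh38 (HISAT2 2.1.0) and summarized them by gene (featureCounts 1.6.5), and the deposited values are raw counts without normalization. Whether counting used strand, and how shared reads were treated, is not given in the sources used here. Identifiers listed on both X and Y were summed, and symbols came from GENCODE release 44.

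Genes with at least 10 counts over the 6 libraries entered the edgeR 4.0.16 fit (R 4.3.3; TMM factors, quasi-likelihood, group only, Benjamini-Hochberg threshold 0.05). The study used DESeq2, run here (1.42.0) as an alternative beside limma-voom 3.58.1, 3 other scalings, 2 other filters, a replicate block, a 1.5-fold requirement and leaving out each library. CPM uses TMM library sizes, standard errors come from the fold change and F, and intervals are 95%. Depth was 17691849 to 26389449 counts, and variation between replicates beyond counting error was 4.36% (square root of the common dispersion). Exon overlaps came from the deposited coordinates. Copies were sought with minimap2 2.31 (other genes: at least 50% covered, 95% identity; alternate contigs: 90% and 98%). The 38 promoter windows at hand, which belong to 30 of the 38 genes, all matched the genome. Replicate libraries differed by more than counting noise (chi-square per degree of freedom 2.04 to 5.56).

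The genes and lists were chosen with earlier results of these data known. By rule, all genes past the threshold, *MYC*, *MAX* and *MXD4* are given in full, with the 5 highest levels per kilobase, the 3 genes nearest the threshold, and up to 6 DEGs of each other list. Other genes named, among them *WDR43*, *POLR1B*, *POLR1C*, *UTP4*, *LYAR*, *PPAN*, *NOP2*, *MNT*, *MXD1*, *PCNA* and members given by fold change only, were chosen after their values were seen.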

Additional observations from a re-analysis of the deposited data

How the results depend on the processing

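With 8 other tests, scalings, filters and designs, 6 of the 9 downregulated genes passed in each, and all 9 kept their direction in these and in the 6 fits that each left out 1 library. *POLR1A* alone passed in all 14. The number of the 38 genes downregulated was 7 with DESeq2 and 10 with limma-voom, and leaving out 1 library at a time gave 2 to 8 downregulated and 0 to 2 upregulated, the 2 being *MAX* and *MXD4* without control CM replicate 2. The median log2 fold change of the 38 then ranged from -0.13 to -0.089. Over all genes, leave-one-out gave 244 to 834 downregulated and 289 to 696 upregulated DEGs, and among the genes of the 6 other MYC and ribosome lists 4 to 22 downregulated and 1 upregulated, against 18 and 1. Requiring a 1.5-fold change left 64 downregulated and 28 upregulated DEGs, 0 of them among the 38 genes and 0 downregulated and 0 upregulated in the other lists. Without a filter on low counts 875 genes were upregulated, against 563, and *WDR75* changed sign to 0.0063.

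Genes not called also changed sign when a library was left out. The log2 fold changes then ran from -0.088 to 0.073 in *LYAR*, -0.095 to 0.040 in *NOB1*, -0.12 to 0.054 in *POLR1C*, -0.13 to 0.036 in *RRP12*, -0.17 to 0.0032 in *RRP9*, -0.13 to 0.14 in *UTP4* and -0.028 to 0.040 in *WDR75*. The cause was not tested. *BOP1*, *GAR1*, *MAX*, *NHP2*, *NOP14*, *NOP16*, *NOP2*, *NOP58*, *PES1*, *PNO1*, *POLR1B*, *PPAN*, *RRP1B*, *UTP15* and *WDR12*, which were not called either, kept their direction but moved by over 1.5 times with at least 1 library left out.

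Same-numbered libraries of the groups did not deviate together (correlations -0.014, -0.10 and -0.093). With deviations taken from means of only 3 libraries per group, this cannot exclude pairing, which the labels do not give. A replicate block gave 7 downregulated (*MYC* and *NOLC1* were lost) and 0 upregulated of the 38 genes, 483 and 502 of all genes and 14 and 1 of the other lists, with a median of -0.10.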
